A study of Mus musculus with 6 samples.

Results

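The 63 genes described here encode the actin motors and the proteins that start, cap and feed actin filaments. They are the rows of the expression table whose symbols name a myosin heavy chain (Myo or Myh followed by a number), a subunit of the Arp2/3 complex (Arpc, Actr2 and Actr3) or of capping protein (Capza and Capzb), together with the formins Fmn1, Fmn2, Diap1, Diap2, Diap3 and Daam1, the nucleators Spire1 and Spire2, and Cfl1, Pfn1, Actb and Actg1. They make up 63 of 23235 gene rows, of which 38 are motors, 17 are nucleators and 8 are capping subunits, actins or monomer-binding proteins.

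Polyadenylated RNA was measured in C57BL/6 mouse oocytes at the germinal vesicle (GV) stage, fully grown, the large cells arrested in meiotic prophase before ovulation. There were 3 libraries of Rtcb knock-out oocytes (Rtcb KO) and 3 of wild-type oocytes (WT), each made from 10 oocytes collected 44 to 48 h after PMSG, a gonadotropin that stimulates follicle growth and that both genotypes received. Rtcb encodes the ligase that joins tRNA exons. Library titles carry the code 6W, which the labels do not spell out, and the labels do not describe how the knock-out was made. Whether each library had its own donor mice is not stated, so the p-values rest on variation among these libraries alone, which may be technical. Less RNA per oocyte and fewer intact oocytes in a pool cannot be told apart.

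Actin filaments in the mouse oocyte form a cytoplasmic mesh and a cortical layer, which are known for moving the meiotic spindle to the cortex and for asymmetric division. Formins and Spire proteins start unbranched filaments, and FMN2 works together with SPIRE1 and SPIRE2 to build the mesh. The Arp2/3 complex starts branches, capping protein stops growth at the fast-growing end, profilin delivers monomers and cofilin takes old filaments apart. Myosins walk along the filaments or pull on them, and MYO5B is known in mouse oocytes for carrying RAB11A vesicles on the mesh.

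Values are FPKM normalized by the authors to ERCC spike-in RNA, and fold changes were taken after adding 1 FPKM (log2 scale), so those of low genes are understated. From the values themselves, a single multiplier is shared by the 3 KO columns and a different one by the 3 WT columns, the KO multiplier being 0.667 times that of WT (a log2 difference of −0.58). Each result is therefore given as deposited and set beside 3 other scalings, namely with these genotype factors removed, with equal totals and with median ratios. The median of all 12029 tested genes was −0.47 as deposited, −0.094 with equal totals, −0.020 with median ratios and 0.043 with the factors removed. Limma called 6501 genes lower (54.0%) and 1118 higher (9.29%) in Rtcb KO as deposited, against 2161 lower (18.0%) and 3097 higher (25.7%) with the factors removed. The shares lower and higher were 25.8% and 19.0% with equal totals and 21.7% and 22.8% with median ratios. Under all 4 scalings alike, 2161 genes were lower (18.0%) and 1110 higher (9.23%). Read depth per library is unknown. The Rtcb transcript itself, listed as D10Wsu52e, stood at 2.49 to 3.82 FPKM in KO and 113 to 136 FPKM in WT libraries. All 10 oocyte markers were present, with sums of 15545 to 16804 FPKM in KO and 22950 to 26543 FPKM in WT. Of 14 granulosa and cumulus cell markers, 10 averaged under 1 FPKM and Ptx3 was listed at 0 throughout (sums of 33.2 to 44.7 FPKM in KO and 47.3 to 54.9 FPKM in WT). The highest of them were Cyp19a1 (means of 19.8 FPKM in KO and 37.5 FPKM in WT) and Inha (10.7 and 6.38 FPKM). Of 8 blood and immune markers, 7 averaged under 1 FPKM and the globin genes Hbb-b1 and Hba-a1 were listed at 0 (sums of 1.08 to 9.10 FPKM in KO and 3.19 to 5.42 FPKM in WT). Cd68 averaged 2.02 FPKM in KO and 3.80 FPKM in WT, and Lyz2 reached 5.46 FPKM in KO library 2. The part of other cells in the values was not tested.

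Of the 63 members, 44 averaged 1 FPKM or more across all 6 libraries and were tested. The 19 below that level were 17 myosins, Diap2 and Capza3, none above Myo3a at a mean of 0.848 FPKM, and Capza3, Myh8 and Myh13 were listed at 0 throughout. As deposited, limma (adjusted p under 0.05) called 36 of the 44 lower and 2 higher in Rtcb KO, beside 54.0% and 9.29% of all tested genes. Under all 4 scalings 17 were lower and 2 higher, 38.6% and 4.55% of the tested members beside 18.0% and 9.23% of all genes. Fmn1, Myh14 and Myo7a passed the filter on their WT levels alone. With a mean of at least 1 FPKM asked of each genotype, 33 of 41 members were lower and 2 higher, beside 55.2% and 8.56% of all genes so filtered. Every KO library lay below every WT library for 37 of the 44 and above it for 2, beside 57.5% and 10.2% of all tested genes.

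All tested motors were lower as deposited, while the shares of nucleators lower and higher as deposited lay near those of all genes. Under all 4 scalings alike, the share lower was above that of all genes for both motors and nucleators. All 21 tested motors fell as deposited, beside 54.0% of all genes, and 10 (47.6%) fell under all 4 scalings, beside 18.0% of all genes, with 0 called higher by limma under any of the 4 (0 also at an unadjusted p under 0.05). Of 16 tested nucleators, 9 (56.3%) fell and 2 (12.5%) rose as deposited, beside 54.0% and 9.29% of all genes. Under all 4 scalings 5 (31.25%) fell and 2 (12.5%) rose, beside 18.0% and 9.23% of all genes. The motors Myh14 and Myo7a and the nucleator Fmn1 passed the filter on their WT levels alone. With a mean of at least 1 FPKM asked of each genotype, 19 of 19 motors and 8 of 15 nucleators were lower, and 2 nucleators higher. Of all genes so filtered, 55.2% were lower and 8.56% higher. The median log2 fold change was −0.93 for motors and −0.53 for nucleators as deposited, a difference of −0.40, and −0.39 and −0.02 with the factors removed. This difference of medians was −0.11 with a pseudocount of 5 FPKM and vanished (0.0056) without the filter, where 15 motors under 1 FPKM joined. There limma called 24 of 36 motors lower and 0 higher (1 higher at an unadjusted p under 0.05). Of all 18553 genes fitted without the filter, 6625 were lower and 1161 higher. Myh15, under the filter, was higher in every KO library than in any WT library (means of 0.474 and 0.308 FPKM). The nucleators divided further by family. Formins and Spire genes had a median of −1.01, close to that of the motors, and Arp2/3 subunits one of −0.42, close to that of all genes.

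**Figure D1:**
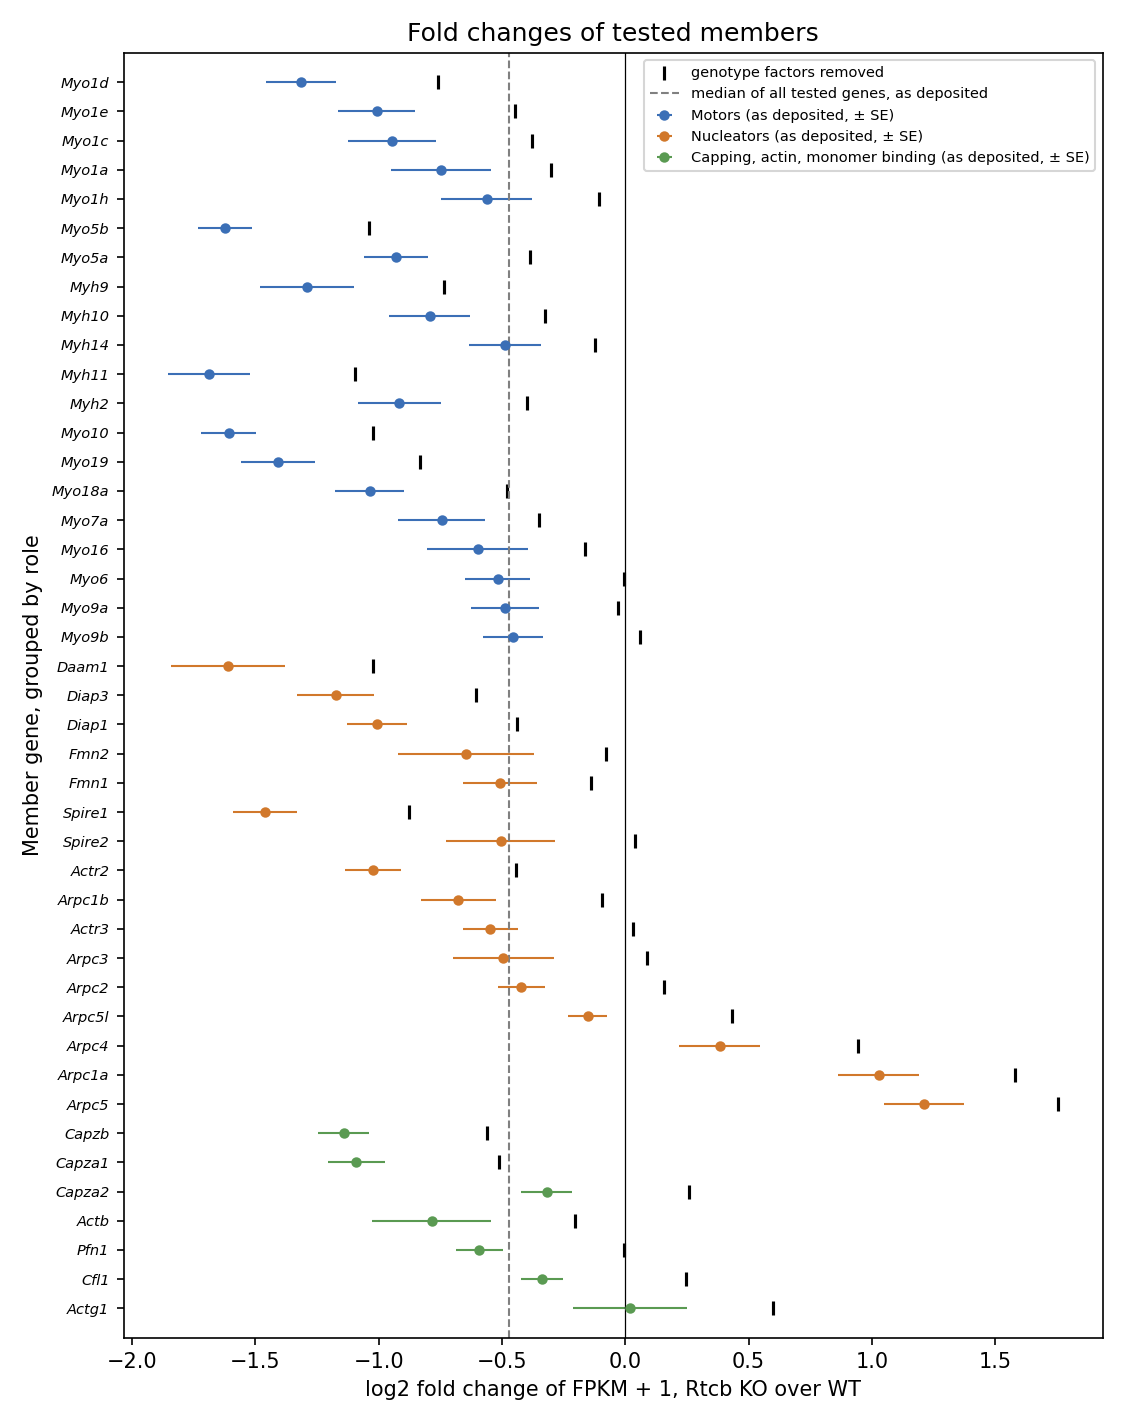
Log2 fold change of FPKM + 1 (Rtcb KO over WT) of 43 of the 44 tested members, grouped by role, as deposited (points, ± SE from limma, n = 3 libraries per genotype) and with the genotype factors removed (vertical ticks). All motors drawn lie left of 0 as deposited, while Arpc1a and Arpc5 lie right of 0 under both scalings; the dashed line is the median of all tested genes, −0.47.

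Within a library the summed motor level can be set against the summed nucleator level, which does not depend on any factor per genotype. The motor sum was 7.79%, 8.35% and 7.28% of the nucleator sum in the 3 KO libraries and 16.2%, 14.2% and 14.96% in the 3 WT libraries. The 2 sets of values did not overlap, and every KO value lay below every WT value. Abundant genes lead such sums. Nucleators summed to 1625, 1599 and 1749 FPKM in KO and 2099, 2255 and 2011 FPKM in WT. Of these sums, Arpc5l alone was 728, 692 and 763 FPKM in KO and 789, 837 and 801 FPKM in WT. As FPKM, motors summed to 127, 134 and 127 in KO and 341, 320.3 and 301 in WT, and Arp2/3 subunits to 1508, 1456 and 1634 in KO and 1828, 1971 and 1697 in WT. Formins and Spire genes summed to 117, 143 and 115 FPKM in KO and 271, 285 and 314 FPKM in WT, so that their sum also stood lower in each KO library than in any WT library.

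Transcript length went along with this contrast. The longest coding transcript of the tested motors had a median of 6745 nt (3439 to 12252), that of the nucleators 2835 nt (899 to 11817). Over all tested genes with a length (11172), the median log2 fold change was −0.23 for transcripts up to 1 kb, −0.37 from 1 to 2 kb, −0.54 from 2 to 4 kb, −0.55 from 4 to 6 kb, −0.60 from 6 to 8 kb and −0.59 beyond 8 kb. Spearman's correlation between length and fold change was −0.16 across these genes and −0.39 across the 44 members, a description over genes that share the same 6 libraries. The part of length in the contrast was not tested. The 4 nucleators of 4 to 6 kb (Daam1, Spire1, Diap3 and Diap1) were lower as deposited, beside 59.9% of all genes of that length. They were also lower under the other 3 scalings. Of all genes, whatever their length, 18.0% were lower under all 4. Of the 2 longer nucleators, Fmn2 (6442 nt) was not called under any scaling and Fmn1 (11817 nt) was called lower as deposited only.

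**Figure D2:**
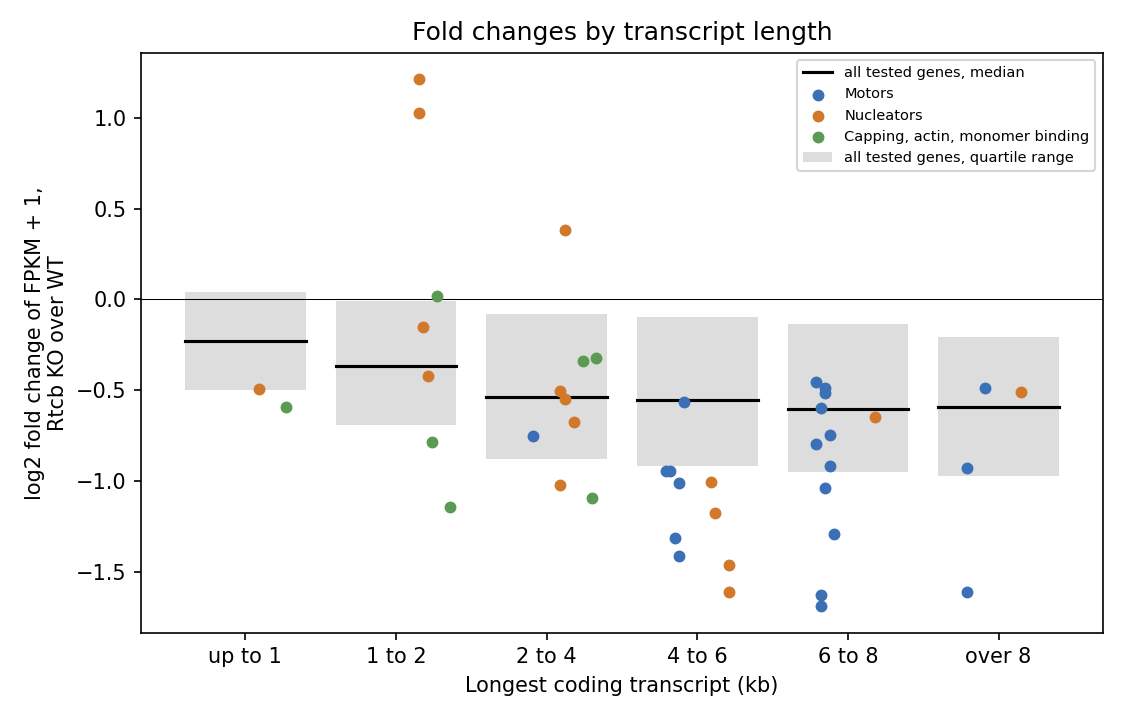
Log2 fold change of FPKM + 1 (Rtcb KO over WT) by the length of the longest coding transcript, in kb. Grey bars are the quartile range and black lines the median of all tested genes in each class (−0.23 up to 1 kb, −0.60 from 6 to 8 kb); points are the tested members, and the motors lie mostly below the median of their class.

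Class V myosins carry vesicles and other cargo along filaments, and both that were tested fell under all 4 scalings, as did 18.0% of all genes. Myo5b was the most abundant motor, at 25.04, 28.4 and 23.9 FPKM in KO and 88.6, 77.9 and 77.8 FPKM in WT libraries. The genotypes lay far apart, and the mean was 25.8 ± 2.31 FPKM in KO and 81.5 ± 6.21 FPKM in WT (SD, n = 3 each; log2 fold change −1.62, SE 0.11, limma adjusted p = 0.000162). Myo5a, the founding member of the class, was at 4.86, 5.27 and 4.40 FPKM in KO and at 10.1 FPKM in each WT library (log2 fold change −0.93, adjusted p = 0.000573). With the factors removed the KO mean was 47.4% of WT for Myo5b and 71.9% for Myo5a. Myo5c stayed below the filter, at means of 0.0939 FPKM in KO and 0.0911 FPKM in WT.

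Class I myosins are single-headed motors that link filaments to membranes. Of 6 tested, all fell as deposited, beside 54.0% of all genes. Under all 4 scalings 3 fell, among them Myo1d and Myo1e, beside 18.0% of all genes. Myo1d was at 2.08, 1.95 and 1.72 FPKM in KO and 6.69, 5.98 and 6.07 FPKM in WT (log2 fold change −1.31, adjusted p = 0.000233). Myo1e was at 7.62, 8.76 and 9.004 FPKM in KO and 19.1, 20.6 and 14.7 FPKM in WT. Myo1c, at 14.7, 12.5 and 15.4 FPKM in KO and 35.7, 28.2 and 22.3 FPKM in WT, was the most abundant of the class, and its call was lost with equal totals (adjusted p = 0.0581), median ratios (0.0637) and the factors removed (0.11). Myo1a, known from the intestinal brush border, averaged 1.28 ± 0.516 FPKM in KO and 2.77 ± 0.296 FPKM in WT. Myo1h averaged 2.37 ± 0.620 FPKM in KO and 3.95 ± 0.621 FPKM in WT, and lost its call without any one of 3 libraries (adjusted p up to 0.0917, without KO 3). Exons of Myo1h and of Kctd10, on the opposite strand, overlap by up to 1010 nt in GENCODE, so their reads could be mixed.

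Nonmuscle class II myosins, whose bipolar filaments contract the cortex and the cleavage ring, were present at low levels. Myh9 was at 2.81, 2.22 and 3.42 FPKM in KO and 8.30, 10.1 and 6.71 FPKM in WT, with no overlap (log2 fold change −1.29, SE 0.19, adjusted p = 0.000728), and fell under all 4 scalings. Myh10 was at 1.68, 1.64 and 1.59 FPKM in KO and 4.36, 3.43 and 3.02 FPKM in WT (log2 fold change −0.79, adjusted p = 0.00343), a call lost with the factors removed (adjusted p = 0.0847) and with median ratios (0.0604). Myh14 averaged 0.947 ± 0.0605 FPKM in KO and 1.73 ± 0.0786 FPKM in WT and was called as deposited only, a call lost without KO 1 (adjusted p = 0.0576). The Myh9 to Myh10 ratio overlapped between the genotypes, at 1.67, 1.35 and 2.15 in KO and 1.91, 2.93 and 2.23 in WT.

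Of the muscle-type heavy chains, only Myh11 and Myh2 reached the filter. Myh11, the smooth muscle heavy chain, was at 4.34, 6.86 and 4.99 FPKM in KO and 20.1, 19.2 and 18.8 FPKM in WT. Its KO mean was 27.9% of WT, the lowest share of any tested member, and 41.9% with the factors removed (log2 fold change −1.69 as deposited and −1.10 without the factors; adjusted p = 0.000183 and 0.00193). Of 10 muscle markers, which include Myh11, 8 averaged under 1 FPKM and Tnnt2 was listed at 0 in every library. The list summed to 21.9 to 27.5 FPKM in KO and 58.8 to 65.8 FPKM in WT, most of it Cnn1 (means of 17.4 FPKM in KO and 41.5 FPKM in WT) and Myh11, and the part of muscle cells in the Myh11 value was not tested. Myh2, a fast skeletal muscle chain, was at 2.40, 3.46 and 2.68 FPKM in KO and 5.38, 6.34 and 7.003 FPKM in WT (log2 fold change −0.92, adjusted p = 0.00205), a call lost with the factors removed (adjusted p = 0.0641).

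Among the remaining unconventional myosins, Myo10, Myo19 and Myo18a fell under all 4 scalings, as did 18.0% of all genes. Myo10, the filopodial motor, was at 13.6, 14.1 and 12.6 FPKM in KO and 40.8, 47.0 and 41.3 FPKM in WT, at a KO mean of 31.2% of WT (log2 fold change −1.61, SE 0.11, adjusted p = 0.000162). Myo19, which binds mitochondria, was at 7.76, 8.66 and 7.39 FPKM in KO and 27.4, 20.02 and 21.3 FPKM in WT. Both sets of libraries lay far apart for these genes, and with the factors removed the KO means were still 46.8% and 52.004% of WT. Myo18a was at 6.04, 6.15 and 7.92 FPKM in KO and 15.03, 14.8 and 14.4 FPKM in WT.

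Of the other members of this group, none was called under all 4 scalings. Myo6, which walks to the minus end of filaments, was at 6.10, 5.75 and 5.55 FPKM in KO and 9.46, 8.02 and 8.74 FPKM in WT. Myo9a and Myo9b, the class IX myosins, averaged 2.78 ± 0.0910 and 6.82 ± 0.273 FPKM in KO, against 4.31 ± 0.255 and 9.71 ± 0.189 FPKM in WT. These 3 fell as deposited, at log2 fold changes of −0.52, −0.49 and −0.45, near the median of all genes, and stood at 99.5%, 96.8% and 105% of WT with the factors removed, where Myo9b turned positive (0.061) and none was called (adjusted p from 0.689 to 0.983). Myo7a, a motor of hair cells of the inner ear, averaged 0.534 ± 0.234 FPKM in KO and 1.56 ± 0.213 FPKM in WT, and Myo16 averaged 1.69 ± 0.520 FPKM in KO and 3.07 ± 0.693 FPKM in WT. The Myo16 call was lost without any one of 4 libraries (adjusted p up to 0.108, without KO 3), and that of Myo9a without WT 2 (0.0515).

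Formins ride on the growing end of the filament they start. Daam1 was at 10.7, 17.02 and 10.3 FPKM in KO and 30.98, 39.7 and 50.8 FPKM in WT, so the highest KO value lay well below the lowest WT value (log2 fold change −1.61, SE 0.23, adjusted p = 0.000649). Diap3 (now Diaph3) was at 10.8, 11.2 and 8.91 FPKM in KO and 20.2, 26.6 and 27.1 FPKM in WT. Diap1 (now Diaph1), like Diap3 a formin of the diaphanous family, was at 12.6, 13.8 and 13.0 FPKM in KO and 24.6, 27.1 and 30.6 FPKM in WT. All 3 fell under all 4 scalings, as did 18.0% of all genes. Their KO means were at 46.9%, 62.7% and 71.7% of WT once the factors were removed.

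Fmn2, the formin of the cytoplasmic mesh, did not pass the test under any of the 4 scalings. It was at 20.9, 33.7 and 26.4 FPKM in KO and 28.6, 42.3 and 61.3 FPKM in WT, and the genotypes overlapped (log2 fold change −0.65, SE 0.27, adjusted p = 0.0702). The WT values spread over more than the difference of the means, and without WT 1 the call was made (log2 fold change −0.92, adjusted p = 0.016). Fmn1 was near the filter, at 0.969, 0.873 and 0.976 FPKM in KO and 1.76, 1.92 and 1.602 FPKM in WT, and was called lower as deposited only. Diap2, under the filter, averaged 0.207 FPKM in KO and 0.122 FPKM in WT.

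Spire1, which works with FMN2 on the same mesh, was the most abundant of the formin and Spire genes and fell under all 4 scalings. It was at 46.1, 56.4 and 41.1 FPKM in KO and 143, 126 and 129 FPKM in WT, without overlap (means 47.9 ± 7.83 and 133 ± 9.47 FPKM, log2 fold change −1.46, SE 0.13, adjusted p = 0.000164). Its paralog Spire2 was at 14.7, 9.80 and 14.1 FPKM in KO and 21.9, 21.1 and 13.4 FPKM in WT, with overlap (log2 fold change −0.50, SE 0.22, adjusted p = 0.0775), and called lower without WT 3 (adjusted p = 0.016). Spire1 was 3.14, 5.76 and 2.92 times Spire2 in KO and 6.54, 5.97 and 9.57 times in WT libraries.

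**Figure D3:**
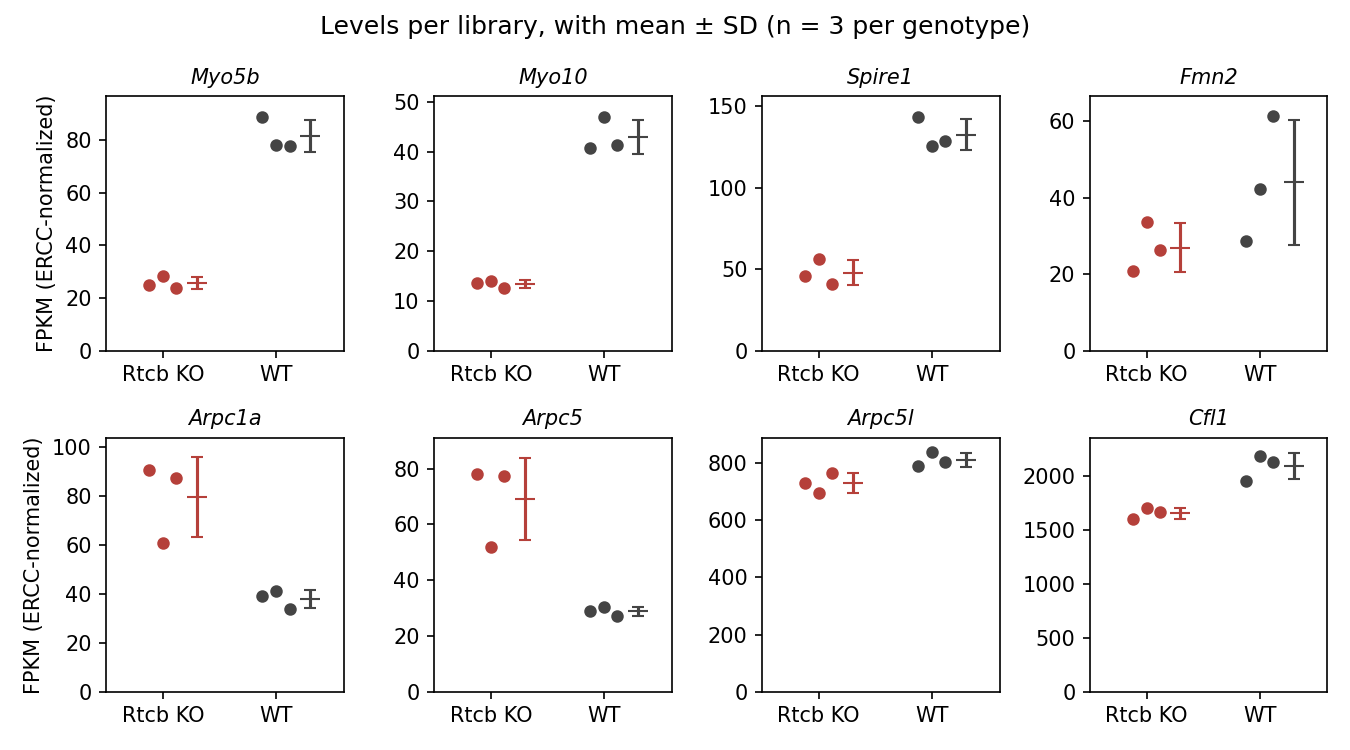
ERCC-normalized FPKM of 8 members in each of the 3 Rtcb KO and 3 WT libraries (points), with mean ± SD beside them; axes start at 0. Myo5b, Myo10 and Spire1 lie lower and Arpc1a and Arpc5 higher in every KO library than in any WT library, while Fmn2 overlaps.

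The Arp2/3 complex is built from the actin-related proteins ARP2 (Actr2) and ARP3 (Actr3) and from 5 ARPC subunits, with alternative subunits for ARPC1 (Arpc1a or Arpc1b) and ARPC5 (Arpc5 or Arpc5l). All 9 genes were expressed. Arpc5 and Arpc1a were the only members of the whole set that rose under all 4 scalings, and Actr2 was the only Arp2/3 gene that fell under all 4.

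Stretches of the Arp2/3 promoters are shown because their genes went in different directions. They are RefSeq sequences of build GRCm38.p6, read from 80 bases before to 20 bases after the annotated gene start, with CCGGAAGT, the core of the motif bound by ETS factors, in capitals on either strand (ACTTCCGG is its reverse). Arpc1a lies at chr5:145083789-145083888 (+), Arpc5 at chr1:152766462-152766561 (+), Arpc4 at chr6:113378033-113378132 (+), Arpc3 at chr5:122391798-122391897 (+), Actr3 at chr1:125435708-125435807 (−) and Actr2 at chr11:20112932-20113031 (−).
Arpc1a: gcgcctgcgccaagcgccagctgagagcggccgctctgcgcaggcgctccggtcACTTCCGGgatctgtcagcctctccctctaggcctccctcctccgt
Arpc5: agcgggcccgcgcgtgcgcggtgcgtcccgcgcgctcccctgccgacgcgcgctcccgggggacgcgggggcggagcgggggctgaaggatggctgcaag
Arpc4: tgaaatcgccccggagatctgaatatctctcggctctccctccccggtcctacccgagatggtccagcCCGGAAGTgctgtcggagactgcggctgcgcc
Arpc3: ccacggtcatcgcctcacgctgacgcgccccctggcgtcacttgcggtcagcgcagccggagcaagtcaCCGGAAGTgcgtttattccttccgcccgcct
Actr3: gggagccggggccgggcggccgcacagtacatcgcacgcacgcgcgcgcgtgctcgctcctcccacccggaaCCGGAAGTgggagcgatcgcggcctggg
Actr2: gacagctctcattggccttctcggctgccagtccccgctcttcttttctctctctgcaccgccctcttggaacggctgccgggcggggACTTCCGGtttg
In windows of 250 bases before to 50 after the start, 5 of the 8 Arp2/3 genes in the RefSeq table held CCGGAAGT, beside 1164 of 27025 genes in that table (4.31%). Arpc5l had no entry there. Of all 36 tested members found in the table, 7 held the motif, among them the motors Myo1c and Myo9b. The motif was chosen with the values known and is a match of letters, not a measured binding site. It stands in the windows of genes that rose (Arpc1a), fell (Actr2) and were not called (Arpc3), and it is not in the window of Arpc5. In Actr2 the motif begins at base 9 of the annotated gene, after the start. The gene end of the Actr2 window was found in no GENCODE transcript of that gene.

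Arpc5 was at 77.9, 51.99 and 77.3 FPKM in KO and 29.0, 30.3 and 27.2 FPKM in WT (log2 fold change 1.21, SE 0.16, adjusted p = 0.000486). Arpc1a was at 90.6, 61.0 and 87.3 FPKM in KO and 39.2, 41.1 and 33.9 FPKM in WT (log2 fold change 1.03, SE 0.16, adjusted p = 0.00101). For both genes every KO library lay above every WT library, and KO 2 lay nearest to WT. The KO means were 239.7% and 209% of WT as deposited and 359.6% and 314% with the factors removed.

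Neither of their alternative subunits rose as deposited. Arpc5l, the most abundant Arp2/3 transcript, was at 728, 692 and 763 FPKM in KO and 789, 837 and 801 FPKM in WT (log2 fold change −0.15, SE 0.08, adjusted p = 0.128). Its direction turned with the scaling, and it was called higher with equal totals (0.28, adjusted p = 0.0238), median ratios (0.36, 0.00827) and the factors removed (0.43, 0.00477). Arpc1b was at 124, 139 and 162 FPKM in KO and 234, 266 and 185 FPKM in WT and fell as deposited only (log2 fold change −0.68, adjusted p = 0.00568). Exons of Arpc1b overlap those of Pdap1 on the opposite strand by up to 931 nt, and the labels name no kit that keeps strand.

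The make-up of the pairs therefore differed within libraries, whatever the scaling. Arpc1a held 42.2%, 30.5% and 35.0% of the summed Arpc1a and Arpc1b level in KO libraries and 14.4%, 13.4% and 15.5% in WT libraries. Arpc5 held 9.67%, 6.99% and 9.20% of the summed Arpc5 and Arpc5l level in KO libraries and 3.54%, 3.50% and 3.28% in WT libraries. The Arpc1a to Arpc1b ratio was 3.31-fold higher and the Arpc5 to Arpc5l ratio 2.62-fold higher in KO (exact permutation test, two-sided, p = 0.1 each, the smallest that 3 against 3 libraries can give, and 0.133 adjusted over the 12 ratios computed).

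Of the other subunits, 3 fell as deposited and 2 were not called, where 54.0% of all genes fell. Actr2 was at 60.1, 72.8 and 56.6 FPKM in KO and 135, 124 and 127 FPKM in WT (log2 fold change −1.02, SE 0.11, adjusted p = 0.000239). Actr3 was at 90.4, 78.5 and 102 FPKM in KO and 136, 132 and 128 FPKM in WT (log2 fold change −0.55, adjusted p = 0.00327), but with the factors removed its value was 0.031 (adjusted p = 0.839). The pair that forms the core of the complex thus stood at an Actr2 to Actr3 ratio of 0.665, 0.927 and 0.553 in KO and 0.987, 0.942 and 0.999 in WT, apart but close in KO 2. Arpc2 averaged 151 ± 11.2 FPKM in KO and 202 ± 14.6 FPKM in WT and fell as deposited only, turning positive under the other 3 scalings (0.0075 to 0.16). Arpc3 was at 132, 171 and 158 FPKM in KO and 236, 275 and 155 FPKM in WT, with overlap (log2 fold change −0.49, adjusted p = 0.0645), and called lower without WT 3 (0.00386). Arpc4 was at 61.0, 45.5 and 64.2 FPKM in KO and 44.3, 49.3 and 36.2 FPKM in WT. It was not called as deposited (log2 fold change 0.38, adjusted p = 0.0729), was called higher with equal totals, median ratios and the factors removed (0.94, adjusted p = 0.00347, for the last), and shares up to 283 nt of exon with Ttll3 on the same strand.

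**Figure D4:**
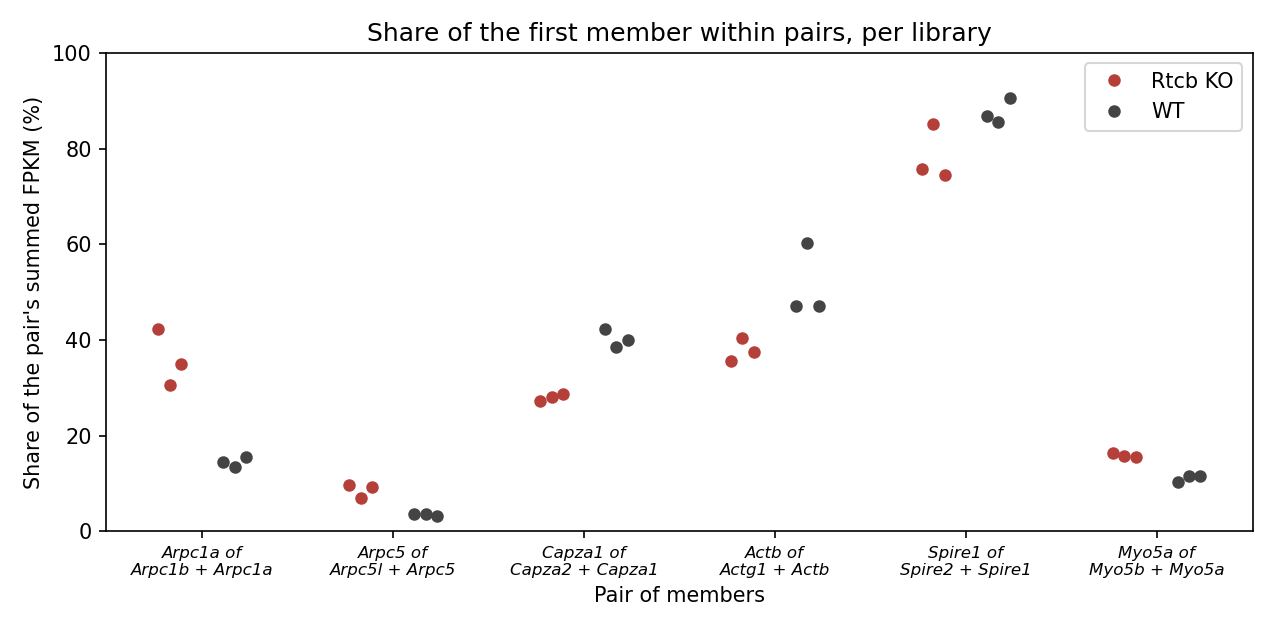
Share of the first member in the summed FPKM of 6 pairs of members, in percent, for each Rtcb KO and WT library; shares do not depend on a factor per library. Arpc1a holds 30.5% to 42.2% of its pair in KO and 13.4% to 15.5% in WT, and Capza1 holds less of its pair in each KO library than in any WT library.

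Capping protein is a heterodimer of an alpha subunit (Capza1 or Capza2 here) and the beta subunit Capzb. Capzb was at 49.6, 50.1 and 47.7 FPKM in KO and 112, 120.3 and 98.0 FPKM in WT (log2 fold change −1.14, SE 0.10, adjusted p = 0.000164), and Capza1 fell alongside, at 31.3, 29.6 and 28.6 FPKM in KO and 73.9, 61.8 and 59.0 FPKM in WT (log2 fold change −1.09). Both fell under all 4 scalings, as did 18.0% of all genes. Capza2 was at 84.0, 75.8 and 71.2 FPKM in KO and 101, 99.1 and 88.6 FPKM in WT, and its call as deposited (log2 fold change −0.32, adjusted p = 0.025) was lost without any one of 4 libraries (up to 0.0884, without KO 3) and turned positive with the factors removed (0.26). The Capza1 to Capza2 ratio was 0.373, 0.391 and 0.401 in KO and 0.731, 0.624 and 0.666 in WT, 1.73-fold lower in KO (exact permutation p = 0.1, adjusted 0.133). The testis form Capza3 was listed at 0 in all 6 libraries.

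Cofilin and profilin were the most abundant members. Cfl1 was at 1600.1, 1701 and 1663 FPKM in KO and 1955, 2185 and 2134 FPKM in WT, and Pfn1 at 759, 853 and 874 FPKM in KO and 1154, 1291 and 1302 FPKM in WT. Both fell as deposited (log2 fold changes −0.34 and −0.59, adjusted p = 0.00927 and 0.00104), and the Cfl1 call was lost without WT 2 (0.0503). With the factors removed Pfn1 stood at 99.5% of WT (adjusted p = 0.959), while Cfl1 turned to 119% (log2 fold change 0.25, adjusted p = 0.0484). The Cfl1 to Pfn1 ratio was 2.11, 1.99 and 1.90 in KO and 1.69, 1.69 and 1.64 in WT.

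The cytoplasmic actins differed from each other. Actb was at 131, 87.7 and 129 FPKM in KO and 200.3, 269 and 142 FPKM in WT (log2 fold change −0.79, SE 0.24, adjusted p = 0.0218), a call lost without any one of 3 libraries (up to 0.0715, without KO 2) and with the factors removed (0.516). Actg1 was at 237, 129 and 215 FPKM in KO and 224, 177 and 159.7 FPKM in WT, with overlap, and was not called (log2 fold change 0.02, SE 0.23, adjusted p = 0.949). Actb was 0.552, 0.679 and 0.599 times Actg1 in KO and 0.893, 1.52 and 0.888 times in WT, so each KO ratio lay below each WT ratio (exact permutation p = 0.1, adjusted 0.133). Actin, cofilin and profilin genes have processed copies in the genome that could share reads, so single values are uncertain.

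Actin genes are textbook targets of the serum response factor, which binds the CArG box, and the stretch of the Actg1 promoter that holds one is shown for that reason. It lies at chr11:120348526-120348625 (−) in RefSeq build GRCm38.p6, upstream of the gene start, with the CArG box in capitals.
Actg1: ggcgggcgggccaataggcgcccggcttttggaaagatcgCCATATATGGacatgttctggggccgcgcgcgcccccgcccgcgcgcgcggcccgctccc
A CArG box stood in the window of 3 of the 36 tested members found in the RefSeq table (Actg1, Arpc4 and Myo1e), beside 488 of 27025 genes (1.81%). Of these 3 genes, Myo1e fell under all 4 scalings, while Actg1 and Arpc4 were not called as deposited. Actb had no entry in the RefSeq table, so its promoter was not searched.

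Of the 12 ratios between members, 9 did not overlap between the genotypes, each at an exact permutation p of 0.1 (0.133 adjusted); the share of other gene pairs that lie apart was not computed. Beside those given above, Myo5a to Myo5b was 0.194, 0.186 and 0.184 in KO and 0.114, 0.129 and 0.130 in WT, 1.51-fold higher in KO. Diap1 to Diap2 was 3.59-fold lower in KO, with Diap2 under 0.25 FPKM in every library. Fmn2 to Spire1 was 0.453, 0.598 and 0.642 in KO and 0.199, 0.336 and 0.477 in WT, with overlap, as were Myh9 to Myh10 and Diap1 to Diap3 (exact permutation p = 0.2 each).

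Other genes of the actin pathway went mostly with the table as a whole. Of 110 tested, 66 were lower and 6 higher in Rtcb KO as deposited, beside 54.0% and 9.29% of all genes. With the factors removed 25 were lower and 20 higher, beside 18.0% and 25.7% of all genes. Their medians were −0.53 as deposited and −0.04 with the factors removed. With a mean of at least 1 FPKM asked of each genotype, 64 of 106 were lower and 5 higher. Of all genes so filtered, 55.2% were lower and 8.56% higher. Of 3 further formins, Fmnl3 (32.1 ± 2.01 FPKM in KO and 83.9 ± 4.66 FPKM in WT) and Fhod3 (28.2 ± 3.14 FPKM in KO and 66.6 ± 13.1 FPKM in WT) fell and Fmnl2 rose (5.48 ± 1.46 FPKM in KO and 2.80 ± 0.347 FPKM in WT), each under all 4 scalings. Of all genes, 18.0% fell and 9.23% rose under all 4.

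Of 15 tested WASP and WAVE genes, which activate Arp2/3, and related nucleators, 10 fell and 2 rose as deposited, beside 54.0% and 9.29% of all genes. With the factors removed 5 fell and 2 rose, beside 18.0% and 25.7% of all genes. Cobl, a filament nucleator, averaged 1.43 ± 0.158 FPKM in KO and 6.47 ± 0.803 FPKM in WT. Cyfip2, of the WAVE complex, averaged 4.91 ± 0.393 FPKM in KO and 15.2 ± 2.13 FPKM in WT, and the Cobl relative Cobll1 fell too (log2 fold change −1.07). The 2 that rose, Abi2 of the WAVE complex (5.30 FPKM in KO and 2.08 FPKM in WT) and Wipf2, were named after their values were seen.

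The counts of the following lists stand beside 54.0% of all genes lower and 9.29% higher as deposited, and 18.0% lower and 25.7% higher with the factors removed. Where limma called 0 higher in these lists, 2 genes of filament binding and turnover and 0 of the others were higher at an unadjusted p under 0.05. Of 11 genes of myosin light chains, their kinases and phosphatase, 4 fell and 0 rose (1 and 1 with the factors removed), among them Mylpf, Ppp1r12a and Myl12b. Of 27 genes of filament binding and turnover, 18 fell and 0 rose (5 and 5 with the factors removed), with Tpm3, Vil1 and Coro2b of smallest p (log2 fold changes −0.97, −0.89 and −1.01). Of 17 crosslinkers and membrane linkers, 14 fell and 0 rose (6 and 1 with the factors removed). Utrn, Dmd and Msn passed the filter on their WT levels alone. With a mean of at least 1 FPKM asked of each genotype, 12 of 14 were lower. Of all genes so filtered, 55.2% were lower. Rdx, the membrane linker radixin, averaged 1072 FPKM in KO and 2411 FPKM in WT. Alpha spectrin, listed as Spna2, averaged 8.38 ± 0.594 FPKM in KO and 23.9 ± 4.30 FPKM in WT. Of 15 genes of vesicle actin and cargo adaptors, 5 fell and 1 rose (2 and 5 with the factors removed). Myrip, which links vesicles to myosins, averaged 4.63 ± 0.505 FPKM in KO and 14.8 ± 2.64 FPKM in WT, and the RAB11 effector gene Rab11fip5 fell (log2 fold change −0.86). Rab11fip2, the 1 that rose, averaged 2.76 FPKM in KO and 0.997 FPKM in WT and so passed the filter only through its KO level. With a mean of at least 1 FPKM asked of each genotype, 14 genes of this list were tested and limma called 5 lower and 0 higher (0 higher also at an unadjusted p under 0.05). Of 5 other actins and actin-related genes, 3 fell and 0 rose, namely Actr1a, Actl6a and Actg2. With the factors removed limma called 0 of these 5 in either direction, and 1 was lower at an unadjusted p under 0.05.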

How the data were processed

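Full-length cDNA of 10 oocytes per library was made by Smart-seq2 from an oligo-dT primer, with ERCC spike-in RNA added, and sequenced as 150 bp paired-end reads, per the labels' protocols. The deposited values are FPKM (fragment counts scaled by transcript length and library) that the authors normalized to the spike-in, per the labels. TopHat2 2.1.1, Cufflinks 2.2.1 and build mm9 are named in the submitters' processing notes. The annotation, filters and derivation of the spike-in factors are not stated there or in the labels. A search over fractions used values of at least 1 FPKM. It found that the columns of a genotype are values of few significant digits times one shared factor, 4/3 in KO and 2 in WT. FPKM keep no read depth, so no counting interval could be given.

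Genes that averaged 1 FPKM or more were compared on log2(FPKM + 1) with limma 3.58.1 (R 4.3.3; empirical Bayes with an intensity trend, Benjamini-Hochberg adjustment over all tested genes, threshold 0.05), which was tested on simulated data. Ratios between members used exact permutation tests over libraries (scipy 1.17.1). Python 3.11.15, numpy 2.4.6, pandas 2.3.3 and matplotlib 3.10.9 were used. Transcript lengths and overlaps came from GENCODE vM21 (mm10) and promoters from RefSeq, neither of the build of the files, and were joined by symbol.

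Alternatives were other scalings, pseudocounts of 0.1 and 5 FPKM, no filter or a mean of at least 10 FPKM, no intensity trend, a replicate block and each library left out. A filter on each genotype separately was chosen after seeing the data. The rule was to name every tested member, with values per library for those called and at least 1.5-fold changed and for the main nucleators and actins, and up to 3 genes of smallest p per other list; some genes that it selects, and 1 list, are not reported here. The members and lists were chosen with earlier results of these data known.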

Additional observations from a re-analysis of the deposited data

How the results depend on the processing

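Another scaling changes every fold by a factor per library, and it moved the counts below; the cause of the other shifts was not tested. With equal totals, median ratios and the genotype factors removed, the genes called lower in Rtcb KO numbered 3107, 2606 and 2161 over the whole table, 20, 18 and 17 among the members, 13, 11 and 10 among motors, 5 each among nucleators and 35, 29 and 25 among the other actin genes. Those called higher numbered 2283, 2746 and 3097 over the table, 4, 4 and 5 among members, 4 each among nucleators and 14, 17 and 20 among the other actin genes. Where a mean of 10 FPKM or more was asked, fewer genes were tested (7267), of which 4694 were lower and 490 higher. There 22 of 30 members were lower and 2 higher, and 8 of 8 motors were lower. Of 70 other actin genes, 53 were lower and 1 higher.

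The difference between the motor and nucleator medians was −0.48 with a pseudocount of 0.1 FPKM, −0.11 with one of 5 FPKM, −0.67 at a mean of 10 FPKM or more and 0.0056 without a filter, and lay between −0.41 and −0.27 with single libraries left out. Members whose direction turned with the factors removed were Actr3 (0.031), Arpc2 (0.16), Arpc3 (0.086), Arpc5l (0.43), Capza2 (0.26), Cfl1 (0.25), Myo9b (0.061) and Spire2 (0.041). With median ratios these were Arpc2 (0.089), Arpc3 (0.017), Arpc5l (0.36), Capza2 (0.19), Cfl1 (0.18) and Myo9b (0.0029), and with equal totals Arpc2 (0.0075), Arpc5l (0.28), Capza2 (0.11) and Cfl1 (0.095). Actg1 turned negative without KO 1 (−0.15), KO 3 (−0.079), WT 2 (−0.014) or WT 3 (−0.087). Without the filter, Actb, Myo16 and Myo1h lost their calls (adjusted p = 0.0523, 0.0585 and 0.0551).

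Deviations of same-numbered libraries from their genotype means correlated at r of 0.141, −0.0988 and 0.0379, and the labels state no pairing. With 3 libraries a genotype, these values cannot tell whether libraries of one number share a batch. With the replicate block 6432 genes were lower and 1108 higher, and 38 members lower and 2 higher, where Fmn2 (adjusted p = 0.0245) and Arpc3 (0.0457) joined the calls; KO 2 correlated best with WT 3 (r of 0.172). With single libraries left out, 31 to 38 members were lower. With 3 libraries a genotype, unknown depth and one factor per genotype, a uniform change of RNA content cannot be told apart from the spike-in scaling.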
